A study of Mus musculus with 23 samples.

Results

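Collagen folding and modifying enzymes are the proteins of the endoplasmic reticulum that a procollagen chain meets between its synthesis and its export. The 9 genes described here, Fkbp10, Fkbp14, Plod1, Plod2, Plod3, Serpinh1, Crtap, Ppib and P4hb, were taken by gene name from a deposited table of 47643 genes, and all 9 were present once. Their expression was read in 18 of the table's 23 RNA-seq libraries, those of cultured cells, bulk tumors and tumor cells sorted from tumors of B16F10, a mouse melanoma line of C57BL/6 origin.

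Each of these sample types had 3 groups of 2 libraries. The control group is labeled WT. The sg492 and sg495 groups, both labeled NR2F6 KO, were made with 2 different single guide RNAs against Nr2f6. The study describes this orphan nuclear receptor as an activator or a repressor of its target genes. The guides were introduced as labeled RNA with Cas9 protein and labeled cells were sorted, and no cloning step is named. All tumors grew under the skin of C57BL/6 mice, which the study's general methods give as males of 6 to 8 weeks with their own immune system. The sorted tumor cells came from collagenase-digested tumors by magnetic removal of stromal cells, and the cultured cells never passed through a mouse.

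Whether the 2 libraries of a group came from separate mice or dishes is not given in the labels, so p-values measure the spread between these libraries, which may be technical. Values are TPM, the abundance of a gene's transcripts scaled by their length and by the library's total, and read depth per library is unknown from them. Every library held between 11925 and 13899 genes at 1 TPM or more.

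RNA of the target gene was read first. Nr2f6 stood at 31.88 and 32.9 TPM in cultured controls, 26.55 and 31.5 with sg492, and 18.55 and 22.43 with sg495. In bulk tumors the order was the same, with 25.83 and 25.24 TPM in controls, 22.31 and 23.31 with sg492, and 17.22 and 15.76 with sg495. In sorted tumor cells, sg495 libraries had 10.6 and 12.18 TPM against 20.32 and 17.73 in controls, but the libraries labeled sg492 had 19.84 and 25.7 TPM and were not below the controls. The name "libraries labeled sg492" is therefore used for that group of sorted cells. The study's methods give immunoblotting and sequencing of the targeted regions as its checks of the knockout. RNA level measures neither the protein nor the edit, so it does not decide whether the target was lost.

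Procollagen chains are hydroxylated on prolines and lysines before they wind into the collagen helix, and chaperones hold the chains and then the helix until export. The lysyl hydroxylases Plod1, Plod2 and Plod3 prepare lysines for sugar addition and for crosslinks outside the cell, with Plod2 known for the lysines of the collagen ends. P4hb is protein disulfide isomerase and also the beta subunit of prolyl 4-hydroxylase. Ppib, a cyclophilin, and Crtap belong to the prolyl 3-hydroxylation complex, Serpinh1 (Hsp47) is a chaperone that binds collagen almost exclusively, and Fkbp10 (FKBP65) and Fkbp14 (FKBP22) are prolyl isomerases of the FK506-binding family.

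All 9 genes lie on autosomes in GRCm38, the assembly also called mm10. Fkbp10 was annotated at chr11:100415697-100424824 on the plus strand with 10 exons in its principal transcript (GENCODE M21), and P4hb at chr11:120560298-120573253 on the minus strand with 11 exons. Plod1 was annotated at chr4:147909753-147936767 on the minus strand with 19 exons, Plod2 at chr9:92542223-92608428 on the plus strand with 20 exons, and Plod3 at chr5:136987019-136996648 on the plus strand with 19 exons. Fkbp14 (chr6:54577604-54597308), Serpinh1 (chr7:99345376-99353239) and Crtap (chr9:114375134-114390675) lie on minus strands, and Ppib (chr9:66060222-66066623) on a plus strand. The 3' part of Fkbp10 overlaps Nt5c3b, a gene on the opposite strand, and Nr2f6 overlaps Ocel1, also on the opposite strand. The libraries were made with a strand-keeping kit, but the strand setting of the counting is not given in the sources used here.

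The ends of the coding sequences of 7 of these genes are shown because proteins of the endoplasmic reticulum are commonly kept there by a signal in their last residues. Each line gives the last 6 codons before the stop codon and the stop codon of the principal transcript, 5' to 3', read from GENCODE M21 transcripts, with the last 4 codons in capitals.
Fkbp10: cgggtcCATGAGGAGCTCtga
Fkbp14: tatgtgCACGACGAACTGtag
Serpinh1: aagatgCGAGATGAGTTGtag
P4hb: gctgtgAAGGATGAACTGtag
Plod1: gtgtctTTCGTCGATCCCtaa
Plod2: gtgtcaTTTATAGATCCCtaa
Plod3: gtgtccTTTGTTGACCCCtga
In the 3 lysyl hydroxylases the last codons ran GAT or GAC and then CCC, a shared ending of their own. Fkbp10, Fkbp14, Serpinh1 and P4hb ended in codons starting with GA and then a leucine codon, as 4 of the 9 genes did. The other 5, with Crtap and Ppib (not printed) among them, lacked that ending.

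Levels spanned a wide range and were set mostly by 3 genes. In cultured cells P4hb stood at 932 ± 98.6 TPM (SD, n = 6 libraries over the 3 groups), Serpinh1 at 560 ± 13.5 and Ppib at 351 ± 6.74. These 3 made up between 77.4% and 87.0% of the summed TPM of the 9 genes in every library, a sum that ran from 1889 to 2283 TPM. Plod2 (93.7 ± 12.7 TPM), Plod1 (71.8 ± 9.70), Crtap (61.9 ± 4.61) and Plod3 (40.5 ± 2.22) followed, and the ranges of Plod1 and its neighbours in this order overlapped. Fkbp14 (17.3 ± 1.92 TPM) and Fkbp10 (8.01 ± 2.18) were lowest in culture.

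The steadiest of the 9 across the 18 libraries was Ppib, which stayed between 312.38 and 375.22 TPM. Fkbp10 was the most variable, from 5.3 TPM in a cultured sg495 library to 44.91 TPM in a sorted control library, a ratio of 8.47. The remaining 7 genes had ratios between 1.55 and 2.18.

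**Figure D1:**
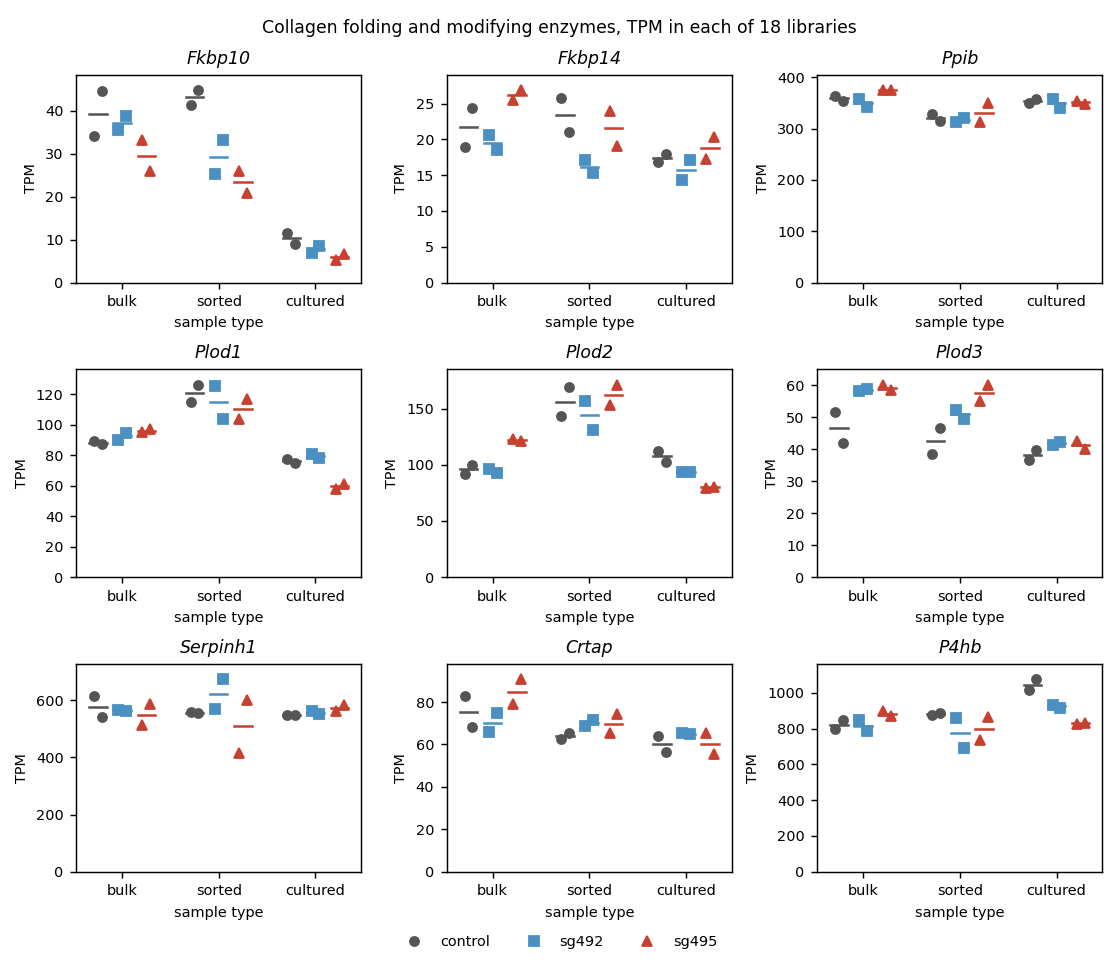
TPM (vertical axes, linear and starting at 0) of the 9 genes in every bulk tumor, sorted tumor cell and cultured cell library; each symbol is 1 library, gray circles are controls, blue squares sg492, red triangles sg495, and short lines are means of 2 libraries. Fkbp10 sat at 5.3 to 11.51 TPM in culture and at 20.78 TPM or more in all tumor-derived libraries, while Ppib stayed between 312.38 and 375.22 TPM.

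The first comparison asked how these genes differed between melanoma cells in culture and cells taken from tumors. Fkbp10 set cultured cells apart from both tumor-derived sample types. It had 11.51 and 9.09 TPM in cultured controls, 41.49 and 44.91 TPM in sorted controls and 34.06 and 44.58 TPM in bulk controls. Over all 6 libraries of a type, cultured cells ranged from 5.3 to 11.51 TPM (median 7.74), sorted cells from 20.78 to 44.91 TPM (median 29.6) and bulk tumors from 26.06 to 44.58 TPM (median 34.8). Cultured libraries therefore did not overlap with the others, whereas sorted and bulk libraries did.

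Differences were tested with limma on log2(TPM + 1), a scale that understates the change of low genes, with Benjamini-Hochberg adjustment over all 13152 genes at a mean of 1 TPM or more; a gene is called where the adjusted p is below 0.05 and the difference is at least 1.5-fold. Fkbp10 was 3.62-fold higher in sorted than in cultured cells (log2 difference 1.85 ± 0.107 SE, limma adjusted p = 1.38e-08) and 4.08-fold higher in bulk tumors than in cultured cells (2.03 ± 0.107, adjusted p = 4.36e-09). Bulk tumors and sorted cells differed by 0.17 (95% interval -0.06 to 0.41, adjusted p = 0.196).

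Plod2 and Plod1 were the other genes called higher in sorted than in cultured cells. Plod2 ranged from 79.84 to 112.31 TPM in culture (median 93.7), from 131.29 to 171.64 TPM in sorted cells (median 155) and from 92.17 to 123.07 TPM in bulk tumors (median 98.1). Sorted cells lay above both other types without overlap, and bulk overlapped with culture. The difference of sorted from cultured cells was 0.72 ± 0.0541 on the log2 scale (1.65-fold, limma adjusted p = 1.45e-07). With control libraries alone it was 0.53 (adjusted p = 0.000621), under 1.5-fold, and the call was lost.

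Plod1 went from 57.93 to 81.1 TPM in culture (median 76.1), from 87.08 to 97.09 TPM in bulk tumors (median 92.4) and from 103.78 to 126.41 TPM in sorted cells (median 116). None of these ranges met. The difference of sorted from cultured cells was 0.68 ± 0.0492 (1.60-fold, adjusted p = 1.01e-07).

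In all, 3 of the 9 genes were called higher in sorted than in cultured cells (2 with control libraries alone), where 14.6% of all genes tested were called higher and 23.6% were called in either direction. Without the fold threshold 7 of the 9 passed, 5 higher and 2 lower, beside 66.5% of all genes. The 2 lower genes were abundant ones, Ppib (log2 difference -0.12, adjusted p = 0.0043) and P4hb (-0.19, adjusted p = 0.00798). Fkbp14 (0.21, limma adjusted p = 0.0491) and Plod3 (0.30, adjusted p = 0.000665) passed on the higher side, and Crtap and Serpinh1 did not pass. Over 11 alternatives Fkbp14 passed in 7, Plod3 in 10 and Crtap in 2.

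Serpinh1 stood out for its level rather than for a difference. Its median was 557 TPM in culture, 564 in sorted cells and 565 in bulk tumors, with ranges of 548.25 to 584.64, 415.49 to 674.39 and 512.02 to 613.64 TPM. The cultured range lay inside the sorted one. The difference of sorted from cultured cells had a 95% interval of -0.18 to 0.16 and that of bulk from cultured cells one of -0.16 to 0.18.

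Between bulk tumors and cultured cells 1 of the 9 genes, Fkbp10, was called, beside 19.8% of all genes, and 7 passed the adjusted p alone, beside 60.7%. Between bulk tumors and sorted cells 0 of 9 were called by limma, beside 13.6% of all genes, and 4 passed the adjusted p alone, beside 49.9% (the same 4 had an unadjusted p below 0.05, beside 55.6%). Plod2 (log2 difference -0.57, adjusted p = 2.34e-06) and Plod1 (-0.31, adjusted p = 0.000181) were lower in bulk tumors, and Crtap (0.17, adjusted p = 0.049) and Ppib (0.16, adjusted p = 0.00101) were higher. Crtap passed in only 4 of 11 alternatives (limma adjusted p up to 0.168), and Ppib in all 11. Plod2, at 1.48-fold, lay just short of the fold threshold and passed it when control libraries alone were compared or when TPM were rescaled by a median of ratios.

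**Figure D2:**
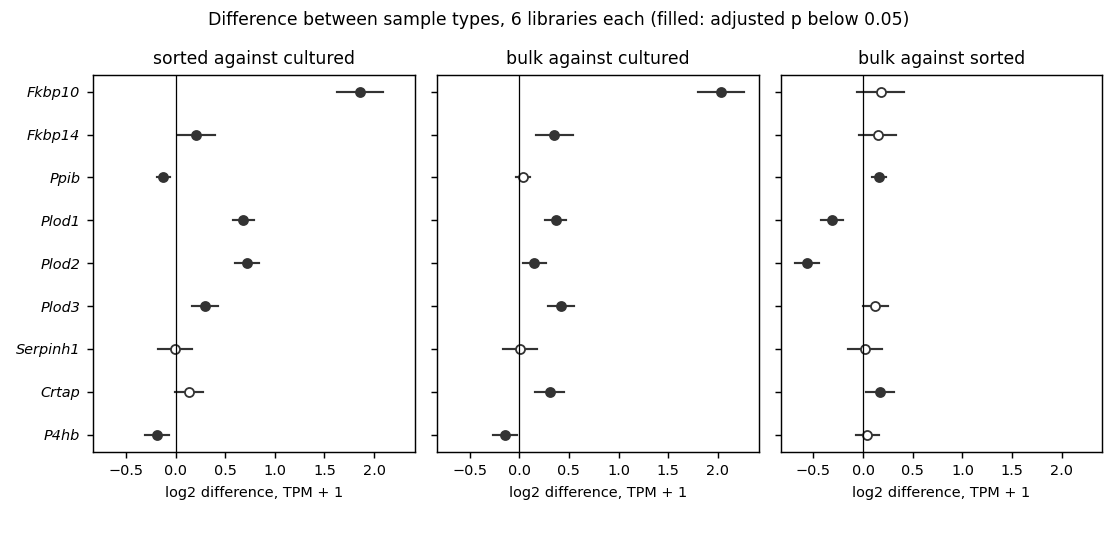
Log2 difference of TPM + 1 between sample types for each gene (horizontal axes), each type averaged over its 3 groups; lines are 95% intervals from limma and filled circles have an adjusted p below 0.05. Fkbp10 stands at 1.85 and 2.03 against cultured cells, and near 0 between bulk tumors and sorted cells.

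A bulk tumor holds cells other than melanoma, and fewer cells of a type cannot be told apart there from less RNA per cell. Stromal content was read from fixed marker lists. The 8 fibroblast markers summed to between 116.55 and 253.09 TPM in bulk tumors, led by Postn, and to between 17.71 and 24.55 TPM in sorted cells, where Pdpn alone gave 16.97 to 22.73 TPM and Lum was at 0 in all 6 libraries. Dcn and Thy1 reached at most 0.22 and 0.14 TPM in sorted cells. Leukocyte markers summed to 166.81 to 424.87 TPM in bulk tumors, with Fcer1g the most abundant, against 10.62 to 14.07 TPM in sorted and 5.66 to 6.54 TPM in cultured cells. Fkbp10 stood at 20.78 to 44.91 TPM in these same sorted libraries, and the part of fibroblasts in it was not tested. The 10 melanocyte markers summed to at least 15361 TPM in every library of all 3 sample types.

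The substrates of these enzymes were distributed differently. Summed TPM of 11 collagen chain genes ran from 498.38 to 1184.75 in bulk tumors, from 31.66 to 39.68 in sorted cells and from 23.69 to 29.9 in cultured cells. All 11 were called higher in bulk tumors than in sorted cells, beside 9.26% of all genes called higher, with a median log2 difference of 4.10 against 0.05 for all genes. The most abundant chain in bulk tumors was Col3a1, with 168.81 TPM in a control library and 1.54 TPM at most in sorted cells, whereas Col4a1 and Col4a2 of basement membranes led in sorted cells. The 9 enzymes, by contrast, summed to 1889 to 2278 TPM in sorted cells and to 2069 to 2251 TPM in bulk tumors.

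Genes that act beside these 9 were counted from lists of the same pathway. Of all genes, 14.6% were called higher in sorted than in cultured cells, 23.6% were called in either direction and 66.5% passed the adjusted p. Of 6 other collagen hydroxylases and glycosyltransferases tested, P3h3 (prolyl 3-hydroxylase; log2 difference 0.92, adjusted p = 5.52e-09) and P4ha1 (a catalytic subunit that pairs with P4hb; 0.62, adjusted p = 1.19e-06) were called higher in sorted than in cultured cells, and the list's median was 0.50 against -0.0025 for all genes. Among 5 other immunophilins of the endoplasmic reticulum, Fkbp7 was called higher (0.77, adjusted p = 6.77e-05), while the list's median was -0.26, with 2 passing the adjusted p on the higher and 3 on the lower side. Among 12 general chaperones of the endoplasmic reticulum, Calr was called lower (-0.70, adjusted p = 6.44e-08), with a list median of -0.12. Of 6 genes of procollagen export tested, 0 were called by limma, 1 passing the adjusted p in each direction and 3 with an unadjusted p below 0.05, beside 69.1% of all genes.

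The second comparison asked how the 9 genes differed after targeting of Nr2f6 with sg495. The sg492 and sg495 groups of a sample type were set against the same 2 control libraries, so their values are given side by side. With 2 libraries against 2, an exact permutation test could not go below p = 0.333, and the limma fit, which pools the spread over the 6 libraries of a sample type and over genes, was used.

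Fkbp10 was lower with sg495 than in controls in all 3 sample types. Cultured controls had 11.51 and 9.09 TPM of Fkbp10, sg492 cells 6.99 and 8.48 TPM, and sg495 cells 5.3 and 6.7 TPM. Both guides lay below both controls, and sg495 overlapped with neither controls nor sg492. The mean with sg495 was 6 ± 0.990 TPM (SD, n = 2), 41.7% below the 10.3 ± 1.71 TPM of controls, with a log2 difference of -0.69 ± 0.163 (limma adjusted p = 0.0454).

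In sorted tumor cells Fkbp10 had 41.49 and 44.91 TPM in controls, 25.4 and 33.18 in libraries labeled sg492, and 26.09 and 20.78 with sg495. Both guide groups lay below the controls and overlapped with each other. The log2 difference with sg495 was -0.86 ± 0.164 and did not pass the adjusted p of this comparison (0.0825). A fit of all 18 libraries gave it a limma adjusted p of 0.013. In bulk tumors the values were 34.06 and 44.58 TPM in controls, 35.5 and 38.88 with sg492, and 33.15 and 26.06 with sg495, where sg495 lay just below the controls (-0.40 ± 0.164, adjusted p = 0.322) and sg492 within them. The study picked Fkbp10 from differential expression in these libraries, so its direction with sg495 is not independent evidence. The sg492 groups were set against the same control libraries, so the direction of Fkbp10 with sg492 is not independent of that choice either.

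The differences of Fkbp10 between sample types in its response to sg495 did not pass a test of the difference itself. Bulk minus sorted was 0.47 (95% interval -0.10 to 1.04), bulk minus cultured 0.29 (-0.27 to 0.86) and sorted minus cultured -0.17 (-0.74 to 0.40), with adjusted p of 0.418, 0.679 and 0.793. With sg492 the log2 difference from controls was -0.37 in culture and -0.07 in bulk tumors (adjusted p = 0.496 and 0.925), and for the sorted libraries labeled sg492, whose Nr2f6 was not below the controls, it was -0.56 (adjusted p = 0.63). Nt5c3b, the gene on the other strand, had 74.99 and 77.72 TPM in cultured controls and 82.85 and 81.05 TPM with sg495 (log2 difference 0.10, adjusted p = 0.227). That sign was opposite to Fkbp10 in culture. With sg495 Nt5c3b differed by -0.03 in sorted cells and 0.01 in bulk tumors (limma adjusted p = 0.898 and 0.955). Ocel1, opposite Nr2f6, was lower with sg495 in culture, as Nr2f6 was (-0.59, limma adjusted p = 0.0191). It differed by -0.15 in sorted cells and -0.08 in bulk tumors (limma adjusted p = 0.783 and 0.872). Nr2f6 itself with sg495 did not pass in sorted cells (-0.69, limma adjusted p = 0.126) or bulk tumors (-0.60, 0.0865). The part of Ocel1 in the values of Nr2f6 was not tested.

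In cultured cells 3 further genes passed the adjusted p with sg495, at less than 1.5-fold. P4hb had 1012.87 and 1076.11 TPM in controls, 929.88 and 917.2 with sg492, and 825.51 and 833.19 with sg495. The 3 groups did not overlap and sg492 lay between the others. The log2 difference of sg495 from controls was -0.33 ± 0.0373 (20.6% lower on mean TPM, adjusted p = 0.00557).

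Plod2 followed the same order in culture, with 112.31 and 102.74 TPM in controls, 93.78 and 93.67 with sg492, and 79.84 and 80 with sg495. The groups did not overlap, and the log2 difference of sg495 from controls was -0.42 ± 0.0523 (25.7% lower, adjusted p = 0.00713). Plod1 had 77.4 and 74.7 TPM in controls, 81.1 and 78.33 with sg492, and 57.93 and 61.37 with sg495. Here sg492 lay above the controls and sg495 below them (-0.35 ± 0.0506, 21.6% lower, adjusted p = 0.0119).

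So 1 of 9 genes, Fkbp10, was called with sg495 in culture, beside 2.77% of all genes tested (332 genes, and 165 to 293 when 1 library was left out), and 4 passed the adjusted p on the lower side, beside 7.5%. The call of Fkbp10 was lost when any 1 of the 6 cultured libraries was left out (log2 difference -0.84 to -0.53, adjusted p = 0.0649 to 0.201). With 1 library left out, Plod1 no longer passed the adjusted p by limma without either control (0.0687 and 0.0544) or sg495 replicate 1 (0.0778), Plod2 without either sg495 library (0.0602 and 0.0517) and P4hb without sg495 replicate 1 (0.0537), all still lower. The same 4 genes were those with both sg495 libraries below both controls, an arrangement that 28.9% of all genes had. Serpinh1, Ppib, Crtap, Plod3 and Fkbp14 did not pass, and the 95% interval of Serpinh1 was -0.02 to 0.14.

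Against sg492, sg495 was lower in culture for Plod1 (log2 difference -0.41, limma adjusted p = 0.00714) and Plod2 (-0.23, adjusted p = 0.0444), 2 of 9 beside 8.08% of all genes on the lower side. Plod1 passed in all 11 alternatives, but Plod2 passed in 5 of the 11, with a limma adjusted p of up to 0.215. At 1.5-fold 0 of 9 were called between the guides in culture, beside 2.61% of all genes, with 3 of 9 at an unadjusted p below 0.05, beside 27.5%. With sg492 against controls in culture 0 of 9 were called, beside 0.05% of all genes, with 2 at an unadjusted p below 0.05, beside 10.5%.

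In bulk tumors and sorted cells the same 3 genes did not pass in either direction. P4hb in bulk tumors had 798.41 and 845.58 TPM in controls against 895.98 and 869.12 with sg495. Plod1 had 89.26 and 87.08 TPM against 95.33 and 97.09, and Plod2 had 92.17 and 99.99 TPM against 123.07 and 121.42. All 3 lay above their controls in bulk tumors, and the log2 differences were 0.10, 0.12 and 0.35 (adjusted p = 0.512, 0.413 and 0.105). In sorted cells with sg495 P4hb lay below both controls (-0.15, adjusted p = 0.635), and Plod1 (-0.13, adjusted p = 0.652) and Plod2 (0.06, adjusted p = 0.866) overlapped with theirs.

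With sg495 in bulk tumors, 6 of the 9 genes (Fkbp14, Plod1, Plod2, Plod3, Ppib and P4hb) had both libraries above both controls, beside 31.6% of all genes. By limma 0 of 9 were called, beside 0.0293% of all genes (4 genes, and 190 without control replicate 1 or 0 to 3 without any 1 of the other 5 libraries), and 2, Plod2 and Plod3, had an unadjusted p below 0.05, beside 15.7%. With sg492 in bulk tumors 0 of 9 were called, with 1 at an unadjusted p below 0.05 (8.3% of all genes), and between the guides there 0 of 9, with 2 at that level (10.1%). In each of these last comparisons 0% of all genes were called, although without control replicate 1 the number with sg492 was 66.

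Summed markers of other cell types differed between the groups of bulk tumors, although 0 genes of these lists passed the adjusted p with either guide. With sg495 all 8 leukocyte markers, 6 of 8 fibroblast markers, 11 of 11 collagen chains, 0 of 7 endothelial markers and 3 of 5 pericyte and smooth muscle markers had an unadjusted p below 0.05, beside 15.7% of all genes. With sg492 the numbers were 7, 0, 1, 0 and 0, beside 8.3%. Leukocyte markers, led by Fcer1g, summed to 234.66 and 166.81 TPM in controls, 285.43 and 317.36 with sg492, and 364.72 and 424.87 with sg495. Fibroblast markers summed to 158.52 and 116.55 TPM in controls, 166.86 and 175.45 with sg492, and 188.31 and 253.09 with sg495. Collagen chains summed to 575.05 and 498.38, 643.59 and 748.57, and 752.8 and 1184.75 TPM in the same order, and endothelial markers to 108.61 and 98.49, 114.11 and 106.1, and 108.34 and 106.39 TPM. Pericyte and smooth muscle markers summed to 56.06 and 51.71 TPM in controls, 55.55 and 57.04 with sg492, and 58.77 and 59.48 with sg495. The endothelial sums overlapped between all groups, whereas sg495 lay above the controls in the other sums. Of the 5 pericyte and smooth muscle markers 4 were higher with sg495. The other, Acta2, was lower, with 31.46 and 26.31 TPM in controls against 24.48 and 20.74 TPM. The part of these cells in the bulk values of the 9 genes was not tested.

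In sorted tumor cells with sg495, 3 of the 9 genes stood apart from their controls, Fkbp10 and P4hb below and Plod3 above, beside 49.4% of all genes in either direction. By limma 0 of 9 were called, beside 0.899% of all genes (116 genes, and 4 to 61 when any 1 of the 6 libraries was left out), and 2, Fkbp10 and Plod3, had an unadjusted p below 0.05, beside 15.6%. Plod3, which also carries a glycosyltransferase activity, had 38.51 and 46.73 TPM in controls, 52.26 and 49.45 in libraries labeled sg492, and 54.99 and 60.22 with sg495. Its groups did not overlap, and the log2 difference with sg495 was 0.43 ± 0.115 (adjusted p = 0.169).

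Plod3 lay above its controls with sg495 in bulk tumors (51.64 and 41.83 against 59.96 and 58.56 TPM) and in culture (36.52 and 39.85 against 42.56 and 40.19 TPM) as well. With sg492 it also lay above the controls in bulk tumors and culture, as did the sorted libraries labeled sg492. In bulk tumors, sorted cells and culture, 31.6%, 17.9% and 27.5% of all genes lay above both controls with sg495. With sg492 the shares were 31.1%, 20.4% and 27.2%. Both guides share the same controls, so their directions are not independent. None of these differences of Plod3 passed the adjusted p by limma within a sample type. In a fit of all 18 libraries Plod3 with sg495 in sorted cells did, at 0.0222. The log2 values with sg495 were 0.34 in bulk tumors and 0.11 in culture. In sorted cells 0 of 9 were called for the libraries labeled sg492 against controls, beside 0.0388% of all genes, with 2 at an unadjusted p below 0.05 (7.13% of all genes), and 0 of 9 between the guides, beside 0.589%, with 1 at that level (14.7%). The libraries labeled sg492 stood apart from both controls for 6 of the 9 genes, 3 above and 3 below, beside 40.3% of all genes.

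1 sorted sg495 library differed from the rest in 2 ways. It drew 8.02% of its TPM from mitochondrially encoded genes, where the other sorted libraries drew 3.45% to 4.73%, and its Serpinh1 value, 415.49 TPM, was the lowest of all 18. The other sorted sg495 library had 601.79 TPM of Serpinh1, within the range of the remaining sorted libraries. A link between the mitochondrial share and Serpinh1 was not tested.

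**Figure D3:**
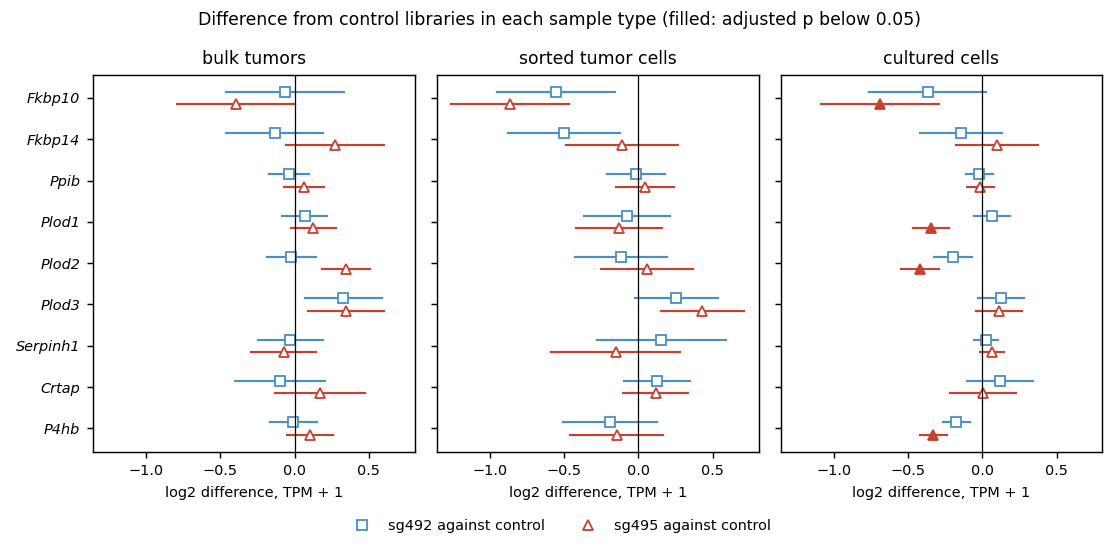
Log2 difference of TPM + 1 from control libraries (horizontal axes) for sg492 (blue squares) and sg495 (red triangles), 2 libraries against 2 in each sample type; lines are 95% intervals from limma and filled symbols have an adjusted p below 0.05. Filled symbols are Fkbp10, Plod1, Plod2 and P4hb with sg495 in cultured cells, and Fkbp10 lies left of 0 in every panel.

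The third comparison asked whether the response to sg495 differed between sample types. Plod2 was the 1 gene of 9 called, with a response 0.77 ± 0.133 higher in bulk tumors than in cultured cells on the log2 scale (95% interval 0.48 to 1.06, limma adjusted p = 0.0161), beside 1.76% of all genes. Plod2 with sg495 lay below its controls in culture and above them in bulk tumors. Plod1 (0.47, adjusted p = 0.0667) and P4hb (0.43, adjusted p = 0.113) had libraries on the same sides and did not pass. The call of Plod2 was lost when any 1 of the 4 cultured control and sg495 libraries was left out, with log2 values of 0.70 to 0.83 and adjusted p of 0.0515 to 0.0736.

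For sorted minus cultured cells 0 of 9 were called, beside 2.51% of all genes, with 2 at an unadjusted p below 0.05 (18.7% of all genes), and Plod2 had a difference of 0.48 (95% interval 0.19 to 0.77, adjusted p = 0.069). For bulk minus sorted cells 0 of 9 were called, beside 0.122% of all genes (16 genes, and 6 to 100 when 1 library was left out), with 0 at an unadjusted p below 0.05, beside 16%.

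Plod2, P4ha1 and P4ha2 are known targets of the hypoxia-inducible factor, and 10 other hypoxia-induced genes were read beside them. In cultured cells with sg495, 8 of these 10 were called lower, beside 2.03% of all genes called lower, and all 10 passed the adjusted p on that side. Their median log2 difference was -0.91 against -0.0010 for all genes. With sg492 in culture 0 of the 10 were called by limma and 1 passed the adjusted p. All 10 were lower, each at an unadjusted p below 0.05, beside 10.5% of all genes, with a median of -0.35. Bnip3, a mitophagy receptor, had 457.09 and 456.21 TPM in controls, 330.77 and 317.36 with sg492, and 164.76 and 157.28 with sg495 (-1.50 ± 0.0399, adjusted p = 0.000197). The groups did not overlap and stood in the order of Plod2 and P4hb.

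Adm, the vasodilator adrenomedullin, fell by 1.79 on the log2 scale in culture (adjusted p = 0.000811), Pdk1, which limits pyruvate entry into mitochondria, fell by 0.97 (adjusted p = 0.00189), and Slc2a1, the glucose transporter, fell by 0.74 (adjusted p = 0.00181). In bulk tumors and sorted cells with sg495, 0 of the 10 were called by limma and 0 passed the adjusted p, with 3 in bulk tumors and 2 in sorted cells at an unadjusted p below 0.05 (15.7% and 15.6% of all genes) and medians of 0.29 and 0.19. The response to sg495 was called higher in sorted than in cultured cells for 6 of the 10, beside 1.86% of all genes called higher, and 5 of the 10 were called higher for bulk tumors over culture, beside 1.6%. The part of this change in the values of Plod2, Plod1 and P4hb was not tested.

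Of 6 other collagen hydroxylases and glycosyltransferases tested in culture with sg495, 4 were lower and 2, P3h1 and P3h2, higher. P4ha1 had 81.96 and 83.98 TPM in controls, 71.51 and 73.66 with sg492, and 64.16 and 61.54 with sg495, again without overlap (log2 difference -0.40, adjusted p = 0.00605). P4ha2 fell by 0.41 (adjusted p = 0.0286), and with P3h3 and Colgalt1 made the 4 that passed on the lower side, 0 of them at 1.5-fold. On that side 7.5% of all genes passed. The responses of P4ha2 (0.90, adjusted p = 0.0357) and P4ha1 (0.62, adjusted p = 0.0477) were called higher in bulk tumors than in cultured cells, beside 1.6% of all genes.

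Other steps of the pathway were counted with sg495 in culture, where 2.77% of all genes were called. Of 5 extracellular processing and crosslinking genes tested there, Loxl2, a lysyl oxidase, was called lower, from 13.2 and 11 TPM in controls to 3.57 and 2.99 TPM (adjusted p = 0.00192). The other 4 were higher, with a list median of 0.19, and of them Pcolce, an enhancer of procollagen processing, passed the adjusted p at under 1.5-fold, from 132.84 and 137.92 to 193.44 and 194.84 TPM (0.52, adjusted p = 0.0139). Of 4 collagen chains tested, Col5a1 was called lower, from 10.52 and 9.95 TPM to 6.05 TPM in both sg495 libraries (adjusted p = 0.00869), and the other 3 were higher without passing (list median 0.35). Of 12 general chaperones of the endoplasmic reticulum 0 were called, with 1 passing the adjusted p on the higher side and 7 with an unadjusted p below 0.05, beside 27.8% of all genes, and their median log2 difference was 0.10. The other immunophilins and the export genes had 0 called of 5 and 0 of 6, with 1 of each passing the adjusted p on the lower side and 2 and 1 with an unadjusted p below 0.05.

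**Figure D4:**
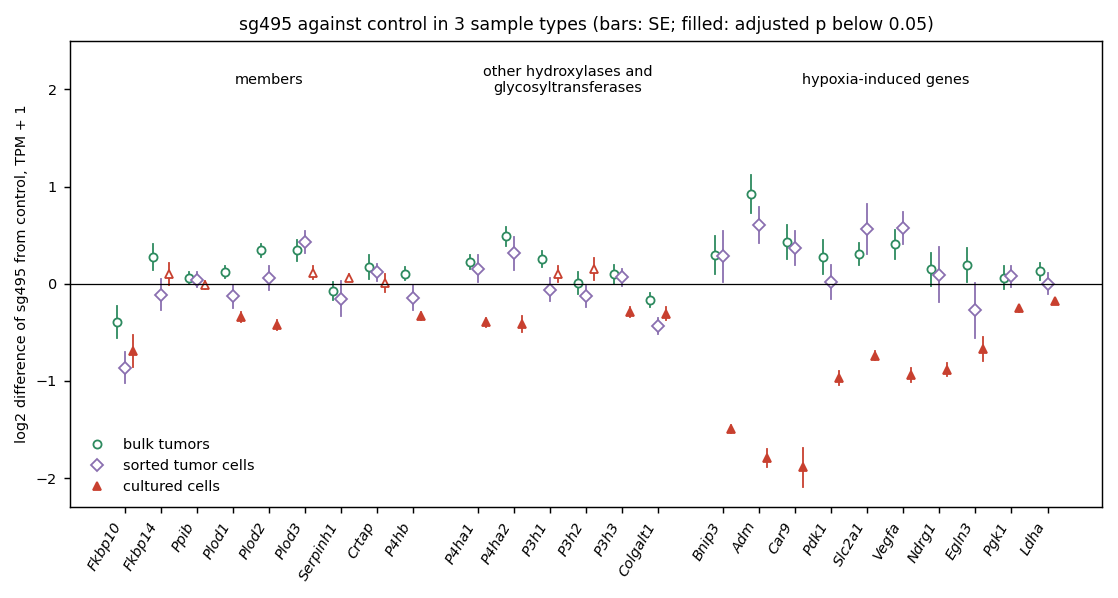
Log2 difference of sg495 from control (vertical axis, TPM + 1) for the 9 genes, 6 other collagen hydroxylases and glycosyltransferases and 10 hypoxia-induced genes in bulk tumors (green circles), sorted tumor cells (purple diamonds) and cultured cells (red triangles); bars are standard errors and filled symbols have an adjusted p below 0.05. All 10 hypoxia-induced genes are filled below 0 in culture, with a median of -0.91, and open in tumors.

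Sequence upstream of the gene starts was looked at for the genes that fell together in culture. RefSeq promoter windows (GRCm38.p6, 250 bases before to 50 after each start) were matched by symbol for 7 of the 9 genes, all but Fkbp10 and Plod2. ACGTG, 1 form of the hypoxia-inducible factor core, was searched on both strands. It was in the windows of 5 of the 7 (Fkbp14, Plod3, Serpinh1, Ppib and P4hb), and 21.8% of 27025 genes with a window held it. Of these 5, only P4hb passed on the lower side with sg495 in culture. Plod3 and Serpinh1 had both sg495 libraries above both controls there. A link between a match and the response was not tested. Of the genes that fell in culture, P4hb held ACGTG and Plod1 did not. The core's other form, GCGTG, was not searched, and the bases printed below hold it in Plod1 and its reverse complement CACGC in P4hb. P4hb and Plod1 are printed 5' to 3' on the gene's own minus strand, as the 250 bases before the start. These are chr11:120573254-120573503 for P4hb and chr4:147936777-147937026 for Plod1, with ACGTG or its reverse complement CACGT in capitals.
P4hb: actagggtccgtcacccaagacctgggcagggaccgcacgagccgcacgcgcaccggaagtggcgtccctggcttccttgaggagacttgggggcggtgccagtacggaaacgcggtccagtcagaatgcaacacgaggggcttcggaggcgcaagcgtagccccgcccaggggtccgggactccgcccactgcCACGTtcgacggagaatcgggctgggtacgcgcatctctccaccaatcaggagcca
Plod1: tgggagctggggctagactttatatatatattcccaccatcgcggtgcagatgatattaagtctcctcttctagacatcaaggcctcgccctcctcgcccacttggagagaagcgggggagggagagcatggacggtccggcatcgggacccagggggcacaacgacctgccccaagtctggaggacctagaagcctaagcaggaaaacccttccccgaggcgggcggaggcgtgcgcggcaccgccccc
The window of P4hb held a further match after the start, not printed here. AGGTCA, the half-site that nuclear receptors bind, was in 0 of the 7 windows on either strand and in 18.1% of all genes with a window. CCAAT was in 4 of the 7 (Fkbp14, Plod3, Ppib and P4hb) beside 41.1% of all genes. A match is a run of letters and not a measured binding site.

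Likeness to Fkbp10 was read by Pearson correlation of log2(TPM + 1) over the 18 libraries, among 10272 genes at a mean of 5 TPM or more. Sample type drives such values, and libraries share it. Igsf3 (r = 0.97), Rcn3 (0.97), Adgre5 (0.97), Pck2 (0.97) and Hoxa11 (0.96) were most like it. Rcn3 had group means of 5.48, 3.48 and 2.01 TPM in cultured control, sg492 and sg495 cells and 29.1, 16.0 and 16.0 TPM in sorted cells. Among the 9 genes Plod1 was nearest to Fkbp10 (r = 0.77), at rank 849.

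After each library was centred on the mean of its sample type, H2afz (r = 0.90), Idh1 (0.89) and Serp1 (0.88), the last a gene of endoplasmic reticulum stress, were most like Fkbp10, followed by Brs3 and Golga7 (both 0.86). Plod3 then ran opposite to Fkbp10 (r = -0.73), while P4hb ran with Plod2 (r = 0.78) and Plod1 (r = 0.73). The 9 genes did not vary as 1 unit across these libraries, with pairwise r from -0.73 to 0.78 after centring. These are descriptions over libraries that share guides and sample types.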

How the data were processed

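RNA of the 18 libraries was poly(A)-selected, made into strand-keeping libraries and read as single 75-base reads. Per the labels' processing notes the authors used Cutadapt 2.3, STAR 2.7.0d, RSEM 1.3.1 and mm10, and deposited TPM, with no counts used here, and TPM do not give the depth of each library. The 9 genes and the marker and pathway lists were chosen with earlier results of these data known. Genes with a mean of 1 TPM or more were tested on log2(TPM + 1) with limma 3.58.1 (R 4.3.3, trended eBayes), 1 fit per sample type for guides and 1 of all 18 libraries for sample types and differences of responses. Calls needed a Benjamini-Hochberg adjusted p below 0.05 over all genes and 1.5-fold. The fit was tested on simulated data. From the lists, called genes were named, at most 4 by adjusted p, with the most abundant markers. Nt5c3b, Ocel1, P4ha2, P3h1, P3h2, P3h3, Colgalt1, Pcolce and genes of the same lists outside this rule were named after their values were seen. Alternatives changed the pseudocount, filter, scaling, block, libraries and fit. The 5 IgG and anti-PD1 libraries entered no test.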

Additional observations from a re-analysis of the deposited data

Results flagged for a closer look

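The response to sg495 was read in several sample types, and 3 genes had every library on opposite sides of its controls in bulk tumors and in culture. Of all genes, 31.6% lay above both controls in bulk tumors and 28.9% below both in culture. The share with both arrangements was not counted. Plod2 differed by 0.77 on the log2 scale (bulk minus cultured, limma adjusted p = 0.0161), Plod1 by 0.47 (adjusted p = 0.0667) and P4hb by 0.43 (adjusted p = 0.113). P4hb also lay above its controls with sg495 in bulk tumors and below them in sorted cells, a difference of 0.25 (adjusted p = 0.383). Only the difference of Plod2 passed the test.

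In 5 libraries outside the comparisons, labeled IgG control and anti-PD1, Plod3 was above both bulk tumor controls, with a lowest value of 58.39 TPM against 41.83 and 51.64 TPM. These libraries were deposited in the same table, and their group cannot be told apart from other differences between them and the bulk tumors. The share of all genes above both controls in these libraries was not counted.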

How the results depend on the processing

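The counts of genes called among the 9 rest on 2 libraries per group. With sg495 in cultured cells the count of 1 became 0 with no filter on low values, with a replicate block, with a fit of 2 groups and with eBayes without trend, 4 with no fold threshold, and 0 to 0 when 1 library was left out. With sg495 in sorted cells it went from 0 to 1 (Fkbp10, adjusted p = 0.013) in a fit of all 18 libraries. With no fold threshold the counts were 2 for sg495 against sg492 in culture, 7 for sorted against cultured, 4 for bulk against sorted and 7 for bulk against cultured. With control libraries only, sorted against cultured gave 2 in place of 3. Bulk against sorted gave 1 (Plod2) under median-of-ratios scaling and with control libraries only, and 0 to 1 when 1 library was left out, with 1 without bulk control replicate 2, sorted control replicate 1, sorted sg492 replicate 2 or sorted sg495 replicate 1. The difference of the sg495 response, bulk minus cultured, gave 0 to 1 when 1 library was left out. The direction of Fkbp10 with sg492 in bulk tumors turned to 0.12 without control replicate 2 (range -0.26 to 0.12), that of Fkbp10 in bulk against sorted to -0.14 and that of Plod2 in bulk against cultured to -0.16 with control libraries only. Among 84 small differences that were not called, 24 of 907 alternative values and 62 of 816 values without 1 library changed sign, none called. The number of all genes called moved as well. With sg495 against controls in sorted cells it was 116, with 49 without control replicate 1, 26 without control replicate 2, 40 and 61 without the libraries labeled sg492, 4 and 5 without those of sg495, 3 with no filter on low values, 53 with eBayes without trend and 399 in a fit of all 18 libraries. In bulk tumors it was 4, with 0 to 190 when 1 library was left out, 0 with no filter on low values or a replicate block and 395 in a fit of all 18. In culture it was 332, with 165 to 293 when 1 library was left out and 219 with no filter. Between the guides in sorted cells it was 76, with 1 to 54 when 1 library was left out, 20 with no filter and 353 in a fit of all 18. For the difference of the sg495 response when 1 library was left out, it went from 231 to between 35 and 418 for bulk minus cultured, from 330 to between 136 and 390 for sorted minus cultured, and from 16 to between 6 and 100 for bulk minus sorted, the last with 53 by eBayes without trend and 130 with no filter. In bulk tumors it went from 0 to at most 66 for sg492 against controls and at most 3 between the guides when 1 library was left out, and to 58 between the guides in a fit of all 18. In a fit of all 18 libraries the limma adjusted p was 0.0596 for P4hb with sg495 in culture and 0.0222 for Plod3 with sg495 in sorted cells. Between the guides in culture the number of all genes called was 313, with 223 to 1319 over 11 alternatives. For sg492 against controls in culture it was 6, with 0 to 8 over 11 alternatives. The highest of each came with no fold threshold. The causes were not tested.

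Same-numbered libraries did not deviate together (r from -0.126 to 0.051), so the numbers were not taken as pairs. With the replicate block the adjusted p of Fkbp10 with sg495 in culture was 0.0754, and all genes called there went from 332 to 293. With a block in which both sg492 bulk tumor libraries trade numbers, added after seeing the data, 0 genes were called with sg495 in bulk tumors, as against 4 without a block. Leaving out the sg492 groups, also added after seeing the data, left the differences of Fkbp10 and Plod2 between sample types on the same side of the threshold.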

Other observations

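The 2 IgG control and 3 anti-PD1 libraries gave another view of the 9 genes. Plod3 was above both bulk tumor controls in all 5, Ppib (261.22 to 404.15 TPM) overlapped with them, and the other genes were below both. How many of all genes lay outside these controls was not counted, so these positions are no result about the 9 genes. Fkbp10 had 4.73 and 9.53 TPM with IgG and 12.11, 10.12 and 6.95 TPM with anti-PD1. Serpinh1 had 162.09 and 57.23 TPM with IgG and 226.53, 207.13 and 139.47 TPM with anti-PD1, where bulk tumor controls had 613.64 and 541.25 TPM. Ptprc, the leukocyte antigen CD45, stood at 86.68 to 272.52 TPM in these 5 libraries against 5.74 and 9.29 TPM in bulk tumor controls, and Pmel, a melanosome gene, at 312.61 to 1066 TPM against at least 2593 TPM. The part of these cell types in the values of the 9 genes was not tested.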
